A study of Homo sapiens with 179 samples.

Results

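The nuclear-encoded subunits of the mitochondrial respiratory chain and ATP synthase were followed at the RNA level in H1 cells, a widely used line of human embryonic stem cells. Members were taken by symbol: NDUFA, NDUFB, NDUFC, NDUFS or NDUFV with a number (complex I), SDHA to SDHD (complex II), names starting with UQCR (complex III), COX4 to COX8 (complex IV) and names starting with ATP5 (complex V), with symbols that hold a hyphen left out. The rule found 87 of the 19084 genes, of which 38 belong to complex I, 4 to complex II, 9 to complex III, 18 to complex IV and 18 to complex V. All cells were H1 grown on Matrigel in E8 medium. The study set libraries of LM-Seq, a strand-specific protocol with oligo-dT selection and random-hexamer priming, beside libraries of Illumina's TruSeq RNA kit. The TruSeq libraries form the groups H1p43 and H1p16 (n = 3 each, 12 samples per sequencing lane), and the labels do not explain p43 and p16. The LM-Seq libraries form 4 groups that differ in how many samples shared a lane: 95 in Lane 1, 48 in Lane 2, 24 in Lane 3 and 6 in Lane 4, each with as many libraries. Separate cultures are not mentioned for the replicates, so a p-value here reflects library-to-library spread alone, which may be technical.

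Libraries held between 29018106 and 35852646 expected counts in H1p43 and between 23680503 and 30628645 in H1p16. Lane 1 libraries held between 1040671 and 1539277, Lane 2 between 2005736 and 2739084, Lane 3 between 4028607 and 4918577, and Lane 4 between 15780078 and 16583048. The pluripotency markers POU5F1, NANOG, SOX2, LIN28A and DNMT3B were above 0 in every library, with summed levels of 4970 to 4990 TPM in H1p43, 5940 to 6230 TPM in H1p16 and 5850 to 6220 TPM in Lane 4. Of 7 fibroblast markers, DCN and LUM were at 0 in every library and COL3A1 reached at most 1.4 TPM. THY1, PDGFRB and the collagens COL1A1 and COL1A2 were above 0 in every library. The 7 summed to 489 to 503 TPM in H1p43, 559 to 594 TPM in H1p16 and 381 to 417 TPM in Lane 4. Most of each sum was THY1, which averaged 387 TPM in H1p43, 495 TPM in H1p16 and 252 TPM in Lane 4. The 5 neuroectoderm markers summed to at most 10.8 TPM in any library. The 5 mesendoderm markers reached at most 12.6 TPM, in Lane 1.

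Complexes I to IV pass electrons from NADH and succinate to oxygen, and complexes I, III and IV pump protons across the inner mitochondrial membrane, a gradient that complex V, the ATP synthase, uses to make ATP. Most of the subunits are encoded in the nucleus, and several of the small ones exist as paralogs whose use differs between tissues. Human pluripotent stem cells are known to draw largely on glycolysis while keeping a working respiratory chain. The subunits encoded by mitochondrial DNA are not analysed here.

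The members fell into a large expressed set and a small near-silent one. In H1p43 and H1p16, 78 of 87 members had a mean of at least 5 TPM (a level per transcript length, scaled to the same total in every library), and 65 in H1p43 and 61 in H1p16 had at least 100 TPM. The 9 others were the same genes in both groups and in Lane 4, namely NDUFA4L2, UQCRHL, COX4I2, COX6A2, COX6B2, COX7A1, COX7B2, COX8C and ATP5L2. In Lane 4, 41 members had at least 100 TPM and 37 had between 5 and 100 TPM. In TruSeq the highest mean level was that of COX7C, a small membrane subunit of complex IV, at 1674 TPM (1504 to 1752, n = 6), followed by UQCRH, the hinge subunit of complex III, at 1107 ± 53.4 TPM. Next came ATP5B, the catalytic beta subunit of ATP synthase, NDUFS5, an accessory subunit of complex I, and ATP5A1, the alpha subunit of ATP synthase. In Lane 4 the order was NDUFS5 at 1012 ± 91.4 TPM (SD, n = 6), ATP5A1 at 976 ± 41.7 TPM, COX4I1 at 949 ± 51.8 TPM, ATP5B at 912 ± 33 TPM and NDUFS6 at 744 ± 45.8 TPM. Among the first 4, each mean exceeded the next by less than 1 SD, so their order is not firm.

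In the tissue-specific paralog pairs of complex IV, 1 form carried nearly all of the RNA. COX4I1, the widely expressed form of subunit IV, was at 572, 570 and 555 TPM in H1p43 and at 579, 574 and 539 TPM in H1p16, and had a median of 932 TPM in Lane 4 (lowest 905, highest 1046). COX4I2, its form in lung and in low oxygen, was at 0.09, 0.43 and 0 TPM in H1p43, at 0.13, 0.10 and 0 TPM in H1p16 and at 0 in all 6 libraries of Lane 4. It was above 0 in 9 libraries of the whole series. COX6A2 and COX7A1, the heart and muscle forms, did not exceed 1.55 and 0.49 TPM in any TruSeq library. Both were at 0 in all of Lane 4, and their highest values in the series were 9.49 and 2.75 TPM, in Lane 1. COX6A1 was at 630 ± 7.14 TPM in H1p43, 621 ± 10.6 TPM in H1p16 and 198 ± 12.6 TPM in Lane 4 (SD, n = 3, 3 and 6). COX7B2 was above 0 in 1 library of the series and COX8C in 8.

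The members at low level outside complex IV were paralogs as well. NDUFA4L2, a paralog of NDUFA4 that is induced by hypoxia, was at 0.16 to 0.24 TPM in H1p43 and at 0.19 to 0.30 TPM in H1p16, and in Lane 4 at 0 in 5 libraries and at 1.22 TPM in the other. NDUFA4 itself, which carries a complex I symbol but is now known as a subunit of complex IV, was at 202, 213 and 206 TPM in H1p43 and at 187, 193 and 199 TPM in H1p16. UQCRHL and ATP5L2 are copies of UQCRH and ATP5L, and RSEM divides reads that match both, so their values are uncertain. UQCRHL had 27.5 TPM in 1 Lane 1 library and 0 in 87 of the 95. The read-through model NDUFC2-KCTD14 was at 55 ± 0.974 TPM in H1p43 and 52 ± 2.74 TPM in H1p16 (SD, n = 3 each), so the split between it and NDUFC2 is uncertain too. The rule also picked up COX4NB, a neighbour of COX4I1 that encodes a subunit of the endoplasmic reticulum membrane complex (EMC8), and ATP5SL, which is not a subunit of ATP synthase. ATP5S, the coupling factor B, had the lowest level of the expressed set, at 7.28 TPM in H1p43, 6.38 TPM in H1p16 and 6.17 TPM in Lane 4.

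**Figure D1:**
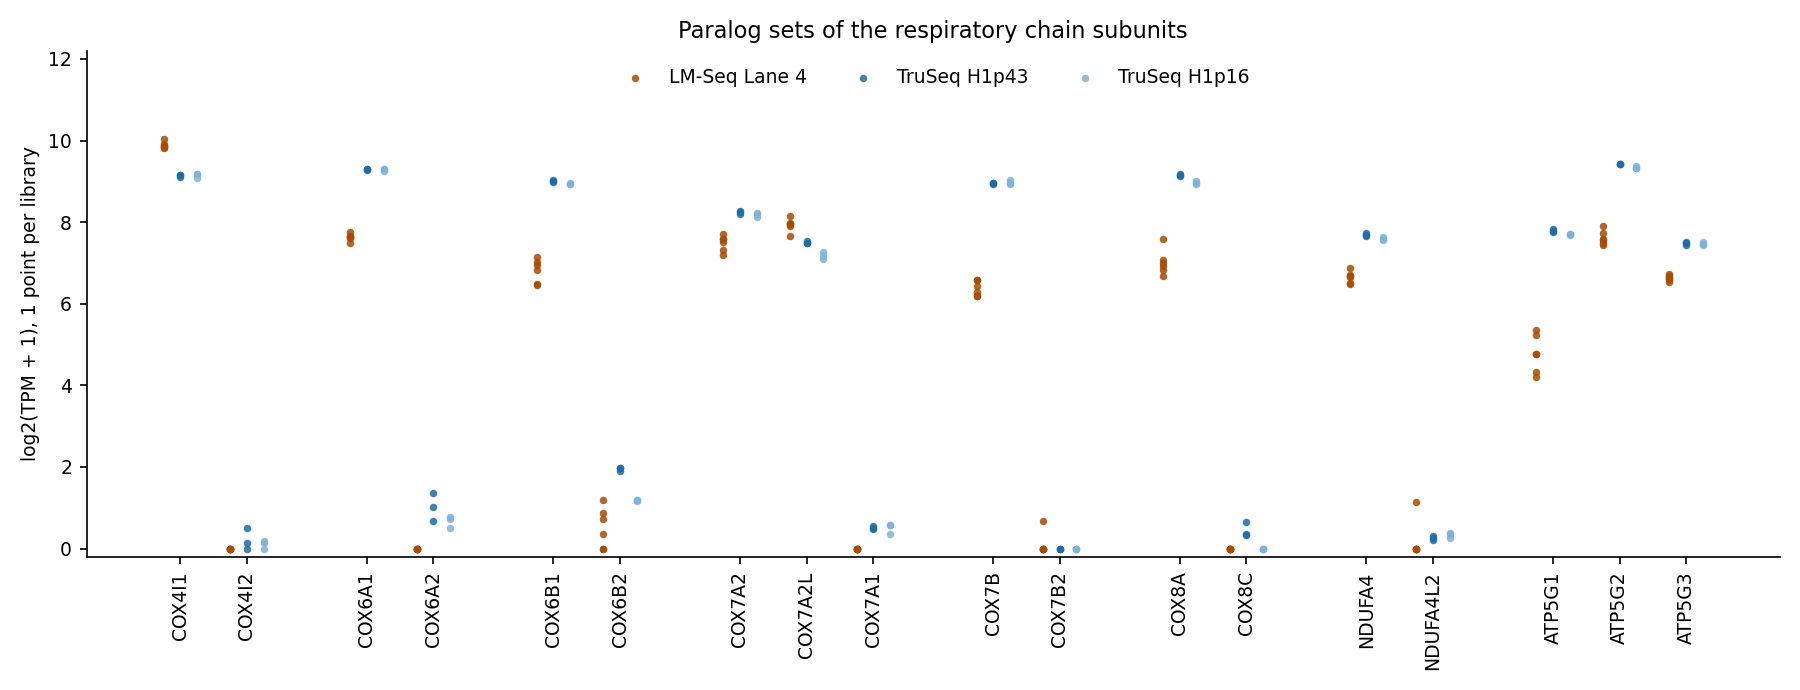
Level of 8 paralog sets, as log2(TPM + 1), with 1 point per library, for LM-Seq Lane 4, TruSeq H1p43 and TruSeq H1p16. COX4I2, COX6A2, COX7A1, COX7B2, COX8C and NDUFA4L2 lie at or near 0 in every group, COX6B2 is low, and all 3 ATP5G genes are expressed.

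The promoters of 2 of these pairs are printed from RefSeq (build GRCh38.p14), because they show an expressed and a near-silent member of the same subunit side by side. Each runs from 250 bases before to 50 bases after the annotated start and is written 5′ to 3′ on the gene's strand. Capitals mark a match to the motif CCGGAAG, a core bound by ETS factors such as GABPA, on either strand.
COX6A1, chr12:120437863-120438162, plus strand: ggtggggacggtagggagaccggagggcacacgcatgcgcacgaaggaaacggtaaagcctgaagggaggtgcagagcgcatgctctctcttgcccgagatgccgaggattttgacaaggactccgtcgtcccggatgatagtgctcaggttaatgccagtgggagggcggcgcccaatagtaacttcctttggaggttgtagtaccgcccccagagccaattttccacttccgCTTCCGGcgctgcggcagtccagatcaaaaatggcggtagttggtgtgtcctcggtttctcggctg
COX6A2, chr16:31428311-31428610, minus strand: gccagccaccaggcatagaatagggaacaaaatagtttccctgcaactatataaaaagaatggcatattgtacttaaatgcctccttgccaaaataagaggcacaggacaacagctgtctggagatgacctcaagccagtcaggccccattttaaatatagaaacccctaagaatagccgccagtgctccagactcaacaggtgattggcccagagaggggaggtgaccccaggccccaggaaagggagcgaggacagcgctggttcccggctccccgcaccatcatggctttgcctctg
COX6B1, chr19:35648073-35648372, plus strand: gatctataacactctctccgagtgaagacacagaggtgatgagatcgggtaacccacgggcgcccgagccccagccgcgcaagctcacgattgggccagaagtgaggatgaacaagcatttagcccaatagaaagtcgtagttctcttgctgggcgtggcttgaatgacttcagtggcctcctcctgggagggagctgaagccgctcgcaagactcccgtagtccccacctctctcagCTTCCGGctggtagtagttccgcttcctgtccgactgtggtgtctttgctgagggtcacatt
COX6B2, chr19:55354670-55354969, minus strand: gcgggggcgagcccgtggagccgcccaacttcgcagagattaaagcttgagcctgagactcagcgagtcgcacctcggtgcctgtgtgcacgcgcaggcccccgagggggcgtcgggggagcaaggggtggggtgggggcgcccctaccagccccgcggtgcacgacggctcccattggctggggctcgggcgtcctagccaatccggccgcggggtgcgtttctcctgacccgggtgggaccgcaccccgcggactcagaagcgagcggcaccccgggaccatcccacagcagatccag

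The expressed forms COX6A1 and COX6B1 each hold 1 match to the motif, starting at base 235 and base 239 of the window, and the near-silent COX6A2 and COX6B2 hold none. In these windows CpG dinucleotides do not follow the same line, with 22 in COX6A1, 5 in COX6A2, 16 in COX6B1 and 31 in COX6B2. Over all members, 69 of 87 had a promoter entry. CCGGAAG was found on either strand in 20 of the 69 (29%), against 10.7% of all 27305 promoters of that length. All 20 members with CCGGAAG lay among the 64 members at 5 TPM or more, and none among the 5 members below 5 TPM, which is too few to set beside them. Of further pairs, COX8A holds a match and COX8C none, while neither COX7B nor COX7B2 holds one. The median number of CpG dinucleotides was 23 in those 64 members, 10 in those 5 and 14 over all promoters. Each of the motifs scanned holds a CpG, and the background promoters were not matched for CpG number. The part of CpG number in the motif contrasts was not tested. The matches describe letters in a window and are not measured binding sites.

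LM-Seq Lane 4, the LM-Seq lane nearest to TruSeq in depth, gave the subunit genes a smaller part of the transcriptome than TruSeq did. The library titles do not say whether the LM-Seq RNA came from the H1p43 or the H1p16 cells. Protocol and cell material can therefore not be told apart in this comparison. Summed, they made up 1.44 ± 0.022% of the TPM total in Lane 4, against 2.28 ± 0.051% (SD, 6 libraries a side) for TruSeq. The protocols did not overlap, with 1.41 to 1.47% in Lane 4 and 2.2 to 2.33% in TruSeq. The ratio of the means was 0.632. The ribosomal protein genes, another set of short and abundant transcripts, took 11.9% of TPM in Lane 4 and 22.6% in TruSeq. Complex I had the highest ratio, 0.844, at 0.609 ± 0.014% in Lane 4 and 0.722 ± 0.013% in TruSeq. Complex IV had the lowest ratio, 0.468, with 0.282 ± 0.0059% in Lane 4 and 0.603 ± 0.019% in TruSeq. Complex III had a ratio of 0.482, complex II of 0.584 and complex V of 0.604. With the ribosomal protein genes taken out of the total, the ratios ran from 0.411 in complex IV to 0.741 in complex I. Those genes took the larger part in TruSeq, so taking them out lowers every ratio by construction and cannot serve as a check.

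**Figure D2:**
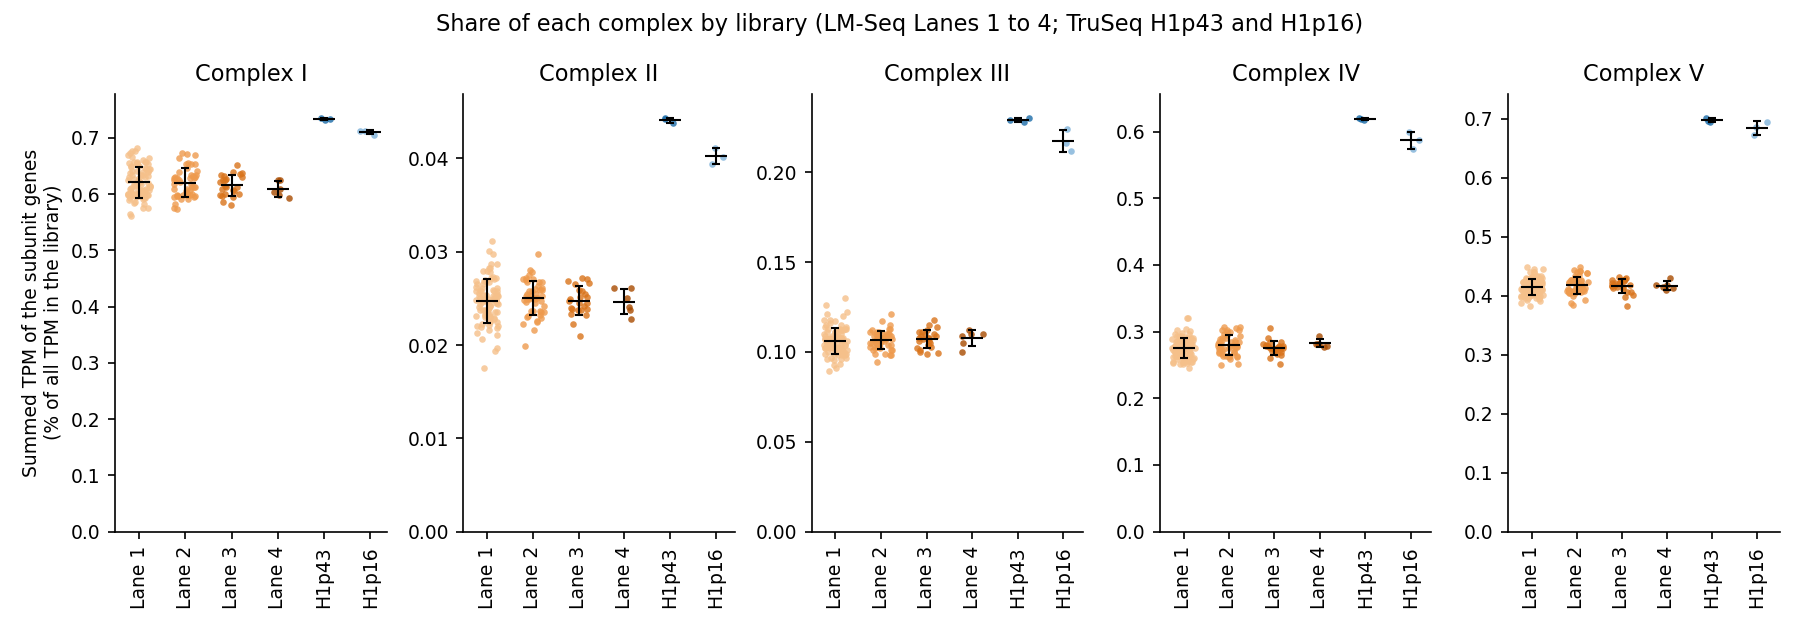
Summed TPM of the subunit genes of each complex, as a percentage of all TPM in the library, with 1 point per library and bars for the mean and SD. All LM-Seq lanes lie close to one another and below H1p43 and H1p16 in all 5 complexes. As a ratio of Lane 4 to TruSeq, it is complex I that lies nearest to 1 (0.844).

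In edgeR's quasi-likelihood test of Lane 4 against the 6 TruSeq libraries, 71.3% of all 13827 genes tested were called at an adjusted p below 0.05, 34.3% higher and 36.9% lower (73.2% at an unadjusted p below 0.05). Of the 87 members 79 passed the filter on low counts, of which 13 were higher, 54 were lower and 12 were not called. The median log2 fold change was -0.64 over these members and -0.06 over all genes. A fold change of at least 1.5 was called for 7 members upward and 37 downward, against a background of 15.1% and 18.4%. Levels in TPM did not overlap between Lane 4 and TruSeq for 12 members upward and 50 downward, against a background of 26.6% and 27.2%. The same 13 and 54 members were called under TMM and RLE scaling and on log2(TPM + 1), against a background of 34.5% and 37%. TruSeq pools H1p43 and H1p16 here. Against H1p16 alone 13 members were higher and 55 lower, against a background of 33.4% in each direction. Against H1p43 alone 17 were higher and 55 lower, against a background of 35.5% and 37.8%.

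Complex I split in both directions, with 9 members higher and 23 lower of 37 tested. The largest increase was in NDUFS1, the largest iron–sulfur subunit of the matrix arm, with a median of 157.4 TPM in Lane 4 (151.2 to 160.6) and of 61.98 TPM in TruSeq (57.96 to 64.3). Its log2 fold change was 1.38 ± 0.06 (SE). Among other core subunits that carry out electron transfer, NDUFV2 (0.72 ± 0.07) was also higher, whereas NDUFS3 (-0.62 ± 0.08), NDUFS7 (-0.92 ± 0.09), NDUFS8 (-1.37 ± 0.07) and NDUFV1, which binds NADH and FMN (-0.24 ± 0.05), were lower. These core subunits were put together by their role after their values were seen.

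The accessory subunits of complex I covered an even wider range. NDUFC1, in the membrane arm, had a median of 246 TPM in Lane 4 (197 to 275) and of 106.1 TPM in TruSeq (97.6 to 107.98), with a log2 fold change of 1.2 ± 0.07. NDUFB8, also in the membrane arm, had 554 TPM in Lane 4 (514 to 625) and 266 TPM in TruSeq (255 to 274), with a log2 fold change of 1.10 ± 0.06. Both genes were well clear of TruSeq in all 6 libraries. NDUFA5 (1.08 ± 0.08) had 200 TPM in Lane 4 (184 to 215) and 94.4 TPM in TruSeq (87.4 to 108.2). NDUFS6 (0.86 ± 0.05), which binds zinc, had 734 TPM in Lane 4 (681 to 816) and 422 TPM in TruSeq (402 to 437). In the other direction, NDUFA3 had 38.6 TPM in Lane 4 (31.1 to 53.1) and 331 TPM in TruSeq (291 to 360), the largest decrease of any member, at a log2 fold change of -2.99 ± 0.10. NDUFA11 followed with 30.96 TPM in Lane 4 (25.7 to 41.98) and 179.3 TPM in TruSeq (167.2 to 194), at -2.42 ± 0.10. NDUFS5, the most abundant member of complex I, differed little: it had 989 TPM in Lane 4 (929 to 1178) and 899 TPM in TruSeq (869 to 910), with a log2 fold change of 0.21 ± 0.06 and an adjusted p of 0.0059 in edgeR.

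Complex II, which is also the succinate dehydrogenase of the citric acid cycle, showed the same unevenness with only 4 genes. SDHB, the iron–sulfur subunit, had a median of 33.8 TPM in Lane 4 (27.1 to 40.95) and of 129.2 TPM in TruSeq (118.3 to 140.9), a log2 fold change of -1.88 ± 0.09. SDHD, a membrane anchor, had 68.8 TPM in Lane 4 (57.2 to 74.3) and 131.2 TPM in TruSeq (125.9 to 142.2), a log2 fold change of -0.95 ± 0.08. The other two were not called: SDHA, the flavoprotein that oxidises succinate, at -0.14 ± 0.07 (adjusted p = 0.095 in edgeR) and SDHC, the second anchor, at -0.05 ± 0.06 (adjusted p = 0.50 in edgeR). SDHA thus made up 31.5 ± 2.10% of the complex II sum in Lane 4 and 20.8 ± 2.10% in TruSeq, and SDHB made up 13.9 ± 2.10% in Lane 4 and 30.7 ± 1.10% in TruSeq (SD, 6 libraries a side). With an offset for transcript length and GC content, an alternative chosen after seeing the data, SDHA was at 0.18 and SDHC at 0.34, both called higher, so the direction of these 2 genes depends on the processing. Without H1p16 replicate 3, SDHA was called lower (-0.18, adjusted p = 0.048 in edgeR).

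Complex III had no member higher and 7 lower of 8 tested. UQCR10, a small membrane subunit, had a median of 28.01 TPM in Lane 4 (21.7 to 38.8) and of 164.6 TPM in TruSeq (152.2 to 183), a log2 fold change of -2.47 ± 0.11. UQCRH had 341 TPM in Lane 4 (291 to 355) and 1133 TPM in TruSeq (1026 to 1153), a log2 fold change of -1.69 ± 0.05. The core proteins UQCRC1 and UQCRC2 were at -0.37 ± 0.05 and 0.04 ± 0.05, and the small subunits UQCRB and UQCRQ at -0.39 ± 0.06 and -0.49 ± 0.12. UQCRC2 was the member of the complex that was not called (adjusted p = 0.42 in edgeR). The Rieske iron–sulfur protein UQCRFS1 stood at -0.68 ± 0.06. UQCRH therefore formed 31.2 ± 1.10% of the complex III sum in Lane 4 and 49.6 ± 0.890% in TruSeq.

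Complex IV had 3 members higher and 9 lower of 13 tested. COX4I1 was higher, with the TPM values given above and a log2 fold change of 0.78 ± 0.05, and so were COX6C (0.40 ± 0.05) and COX7A2L (0.63 ± 0.07), a factor of respiratory supercomplexes. COX7B was lower, with a median of 81.7 TPM in Lane 4 (71.98 to 95.3) and of 497 TPM in TruSeq (487 to 524), a log2 fold change of -2.55 ± 0.08. COX7C had 324 TPM in Lane 4 (289 to 375) and 1729 TPM in TruSeq (1504 to 1752), a log2 fold change of -2.33 ± 0.06. Neither gene overlapped between the protocols. The single gene COX4I1 made up 33.6 ± 2.30% of the complex IV sum in Lane 4 and 9.38 ± 0.460% in TruSeq, while COX7C made up 11.4 ± 0.860% in Lane 4 and 27.7 ± 1.10% in TruSeq (SD, 6 libraries a side). COX6B2 was lower at -1.95 ± 0.59, from 0 to 1.27 TPM in Lane 4 and from 1.23 to 2.95 TPM in TruSeq, and lost the call against H1p16 alone (-1.33, adjusted p = 0.11 in edgeR).

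In complex V 1 member was higher and 13 were lower of 17 tested. The subunits of the F1 head differed in their fold changes. ATP5A1 (alpha) was higher at 0.28 ± 0.04, ATP5B (beta) was not called at -0.08 ± 0.05 (adjusted p = 0.18 in edgeR; limma on log2(TPM + 1) called it lower, at -0.12 with an adjusted p of 0.0070), and ATP5C1 (gamma), ATP5D (delta) and ATP5E (epsilon) were lower at -0.39 ± 0.05, -1.79 ± 0.07 and -2.13 ± 0.07. ATP5B turned to 0.18 (adjusted p = 0.011 in edgeR) with an offset for effective length. The 3 genes ATP5G1, ATP5G2 and ATP5G3, whose products are cut to the same mature c subunit of the rotor ring, were all lower but unequally so. ATP5G1 had a median of 26.4 TPM in Lane 4 (17.5 to 40.1) and of 213 TPM in TruSeq (204 to 227), at -2.85 ± 0.16. ATP5G2 had 190 TPM in Lane 4 (174 to 239) and 674 TPM in TruSeq (640 to 691), at -1.73 ± 0.07, and ATP5G3 had 98.1 TPM in Lane 4 (91.6 to 104.8) and 177 TPM in TruSeq (173.4 to 183), at -0.82 ± 0.05. For the 12 members with the largest changes in either direction the adjusted p in edgeR was at most 9.6e-09, that of NDUFA5.

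**Figure D3:**
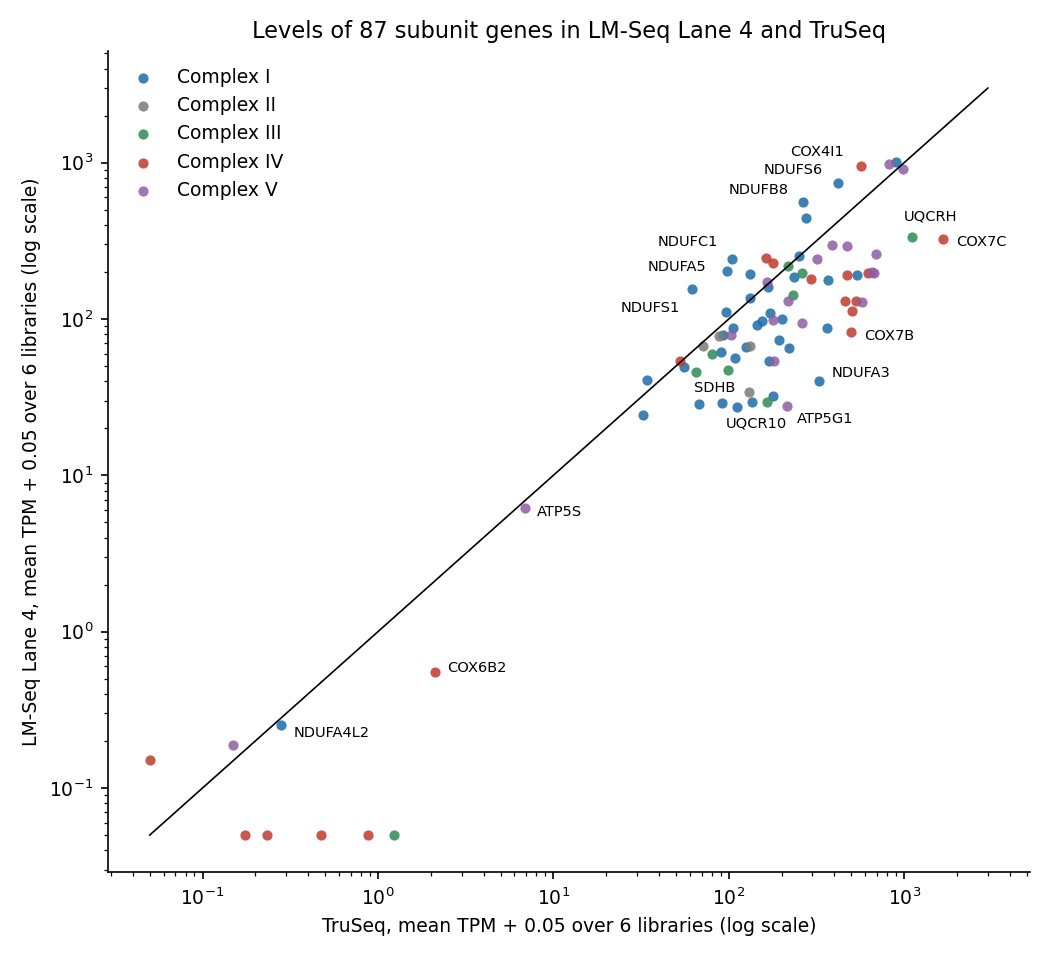
Mean TPM of each of the 87 members over the 6 libraries of LM-Seq Lane 4 (vertical) and the 6 TruSeq libraries (horizontal), both on log axes after adding 0.05 TPM, coloured by complex; the line marks equal levels. Most points lie below the line, COX7C and UQCRH among them, while COX4I1, NDUFS6, NDUFB8, NDUFC1, NDUFA5 and NDUFS1 lie above it, and 9 members sit near 0 in both.

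Short transcripts were lower in Lane 4 across the whole transcriptome, and the subunit genes are short. The relative effective length is the ratio of expected count to TPM in a library, scaled so that the median gene is 1. It was below 0.5 for 61 of the 79 members tested (77.2%), against 16.9% of all genes tested. Over all genes the median log2 fold change of Lane 4 over TruSeq was -1.08 up to a relative length of 0.2, -0.62 from 0.2 to 0.4, -0.22 from 0.4 to 1, 0.11 from 1 to 2 and 0.34 above 2. The members had medians of -1.69 (23 genes), -0.66 (30 genes), -0.14 (23 genes) and -0.39 (3 genes) in the first 4 of these classes, and none was longer. Members thus lay near the other genes of their length, apart from the shortest class and the thinly filled class from 1 to 2.

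GC content went with the fold change as well. Over all genes the median log2 fold change was 0.42 at a transcript GC content up to 45% and -0.88 above 60%, and the members' medians were -0.39 (19 genes) and -1.46 (7 genes) in the same classes. From 45 to 50%, 50 to 55% and 55 to 60%, the members' medians were -0.51, -0.62 and -1.67, against 0.17, -0.19 and -0.54 over all genes. The members' median thus lay below that of all genes in every GC class. Spearman's rho of the fold change was 0.30 with relative length and -0.57 with GC content over all genes tested, and 0.47 with length and -0.26 with GC content over the members. These are descriptions across genes, which are not independent replicates. With an offset for effective length in the fit, 24 of 79 members were higher and 40 lower, against a background of 34.5% and 34.2%, with a median of -0.18 beside -0.03 over all genes. With an offset for transcript length and GC content, 25 of 78 were higher and 45 lower, against a background of 31.5% and 30.5%, with a median of -0.32 beside -0.03 over all genes. The transcript length in that offset does not follow the relative length for every member. In Lane 4, SDHC had 794 bases and a relative length of 0.89, NDUFC1 809 bases and 0.24, and ATP5E 3665 bases and 0.128. The values of such members under that offset are therefore uncertain. The part of length and GC content in the remaining differences was not tested. ATP5J, the coupling factor F6, had a relative length of 0.376 in Lane 4 and 0.233 in TruSeq, so the transcript length that RSEM assigned to it differed between protocols; it was picked out after its values were seen.

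**Figure D4:**
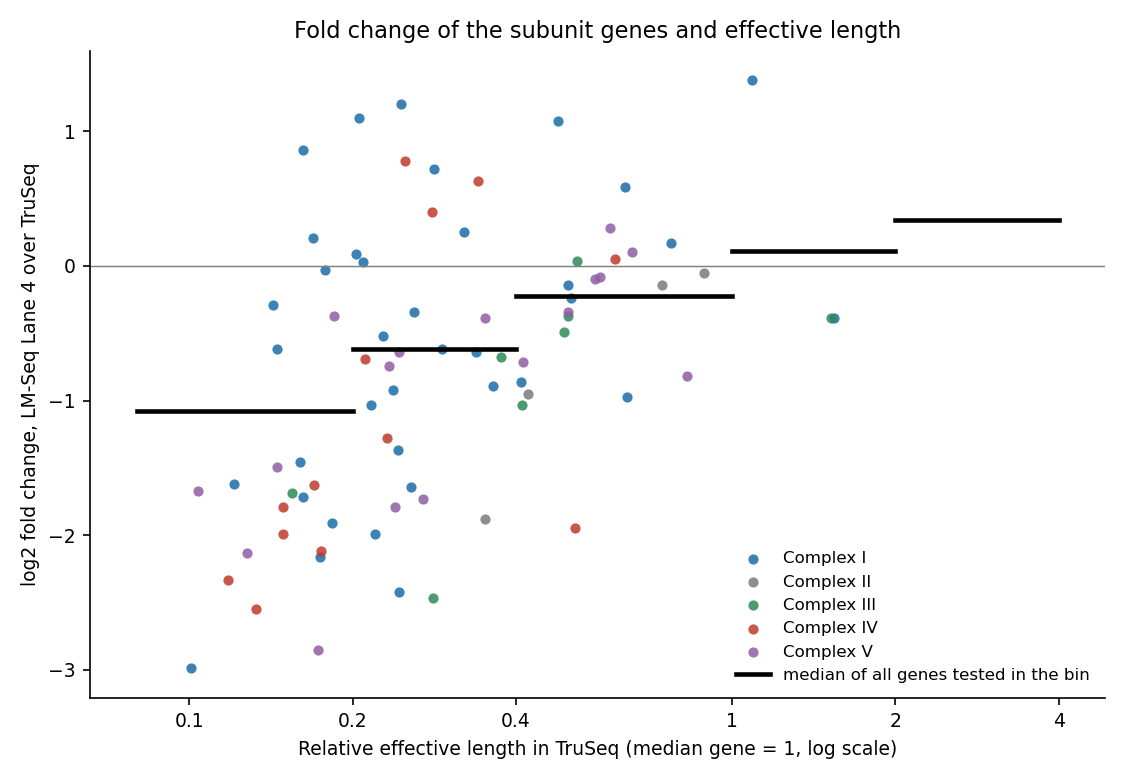
Log2 fold change of LM-Seq Lane 4 over TruSeq for the 79 members tested (points, by complex) against their relative effective length in TruSeq (log scale, median gene = 1). Black bars give the median of all genes tested in each length class, which runs from -1.08 in the shortest to 0.34 in the longest.

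H1p43 and H1p16 differed in many members by small amounts, and the balance of higher and lower calls depended on the scaling. In bulk RNA, a change in the number of cells of a kind and a change in RNA per cell cannot be told apart. In edgeR's quasi-likelihood test, which rests on TMM scaling of counts, 71.8% of the 14574 genes tested were called, 36.4% higher and 35.4% lower in H1p43 (73.8% at an unadjusted p below 0.05). Of 79 members tested, 12 were higher, 38 were lower and 29 were not called. Their median log2 fold change was -0.06, against 0.01 over all genes. With limma on log2(TPM + 1), 35 members were higher and 15 lower, with a median of 0.06 against 0.09 over all genes, of which 47.1% were called higher and 26.3% lower. TPM did not overlap between the groups for 34 members upward and 14 downward, against a background of 47.9% and 25.9%. On both scales the members' median lay a little below that of all genes. Counting higher and lower together, the members were also called less often than all genes on both scales. The summed level was 2.32 ± 0.0038% of TPM in H1p43 and 2.24 ± 0.035% in H1p16 (SD, n = 3 each), a ratio of 1.04. A fold change of at least 1.5 was called for 1 member upward, COX6B2, and for no member downward, against a background of 7.57% and 3.45%; at an unadjusted p below 0.05 that test gave 1 member in all. H1p43 shares its libraries with the TruSeq side of the protocol comparison.

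**Figure D5:**
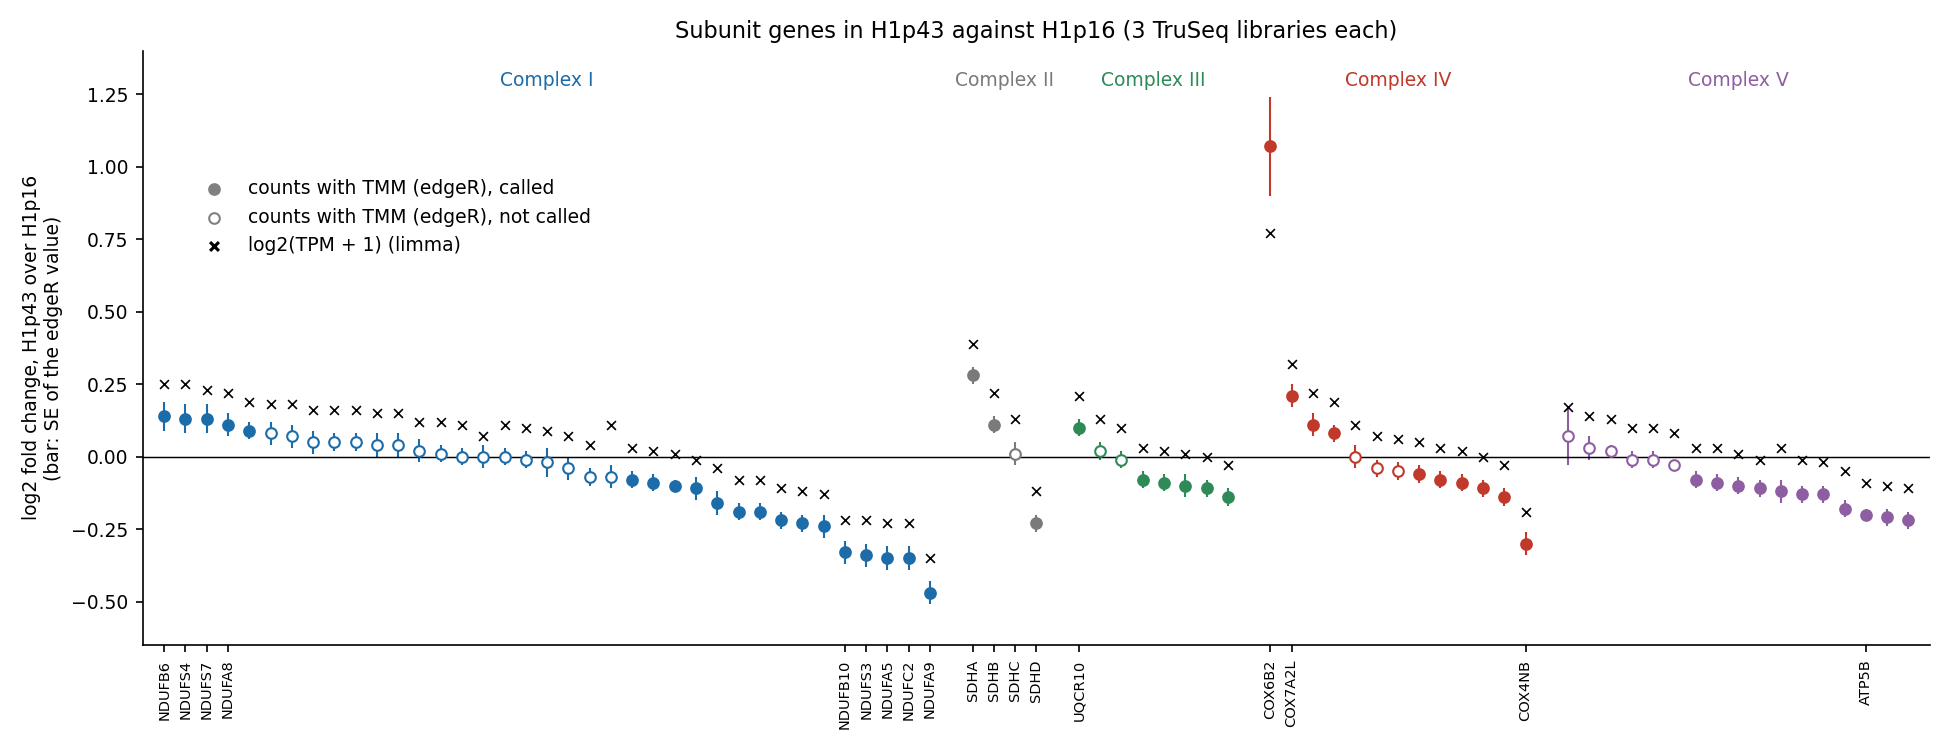
Log2 fold change of H1p43 over H1p16 for the 79 members tested, ordered within each complex, as edgeR gives it on counts with TMM (circles with SE, filled where called) and as limma gives it on log2(TPM + 1) (crosses); names are given for some of the genes in the text. The crosses lie above most circles, so members near 0 change sign between the scales, while NDUFA9, SDHD and COX4NB stay below 0 and SDHA and COX7A2L stay above it.

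Under all of TMM, RLE and TPM scaling, 12 members were called higher and 15 lower, against a background of 35.4% and 26.2%. Complex I had 5 of those higher and 10 of those lower. Other members kept a negative sign on both scales but lost the call on log2(TPM + 1), such as UQCRC1, at -0.14 ± 0.03 on counts and -0.03 on log2(TPM + 1). NDUFA9, an accessory subunit at the junction of the matrix and membrane arms, was at 46.3, 49.2 and 49.9 TPM in H1p43 and at 60.6, 60.5 and 65.1 TPM in H1p16, the largest decrease of any member, with a log2 fold change of -0.47 ± 0.04 (SE). NDUFS3, a core subunit, was at 132.8, 130.98 and 135.8 TPM in H1p43 and at 150, 154.2 and 163.4 TPM in H1p16 (-0.34 ± 0.04). NDUFB10 was at 239, 226 and 233 TPM in H1p43 and at 278, 279 and 257 TPM in H1p16 (-0.33 ± 0.04). None of these 3 genes overlapped between the groups. NDUFA5 (-0.35 ± 0.04) and NDUFC2 (-0.35 ± 0.04) were lower by a like amount, with the reservation on NDUFC2 given above.

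The increases within complex I were smaller. NDUFB6 was at 100.8, 101.5 and 101.9 TPM in H1p43 and at 79.6, 85 and 90.4 TPM in H1p16, a log2 fold change of 0.14 ± 0.05. NDUFS4, which is needed for late assembly of the complex, was at 142.2, 142.9 and 143.6 TPM in H1p43 and at 110, 122.4 and 130 TPM in H1p16 (0.13 ± 0.05), and the groups did not overlap. NDUFS7 (0.13 ± 0.05) and NDUFA8 (0.11 ± 0.04) rose by similar amounts. NDUFS4, NDUFS7 and NDUFA8 were not called by DESeq2 (adjusted p of 0.063, 0.069 and 0.089), and NDUFS7 turned to -0.05 (adjusted p = 0.17 in edgeR) with an offset for transcript length and GC content. Leaving out H1p16 replicate 1 ended the calls of NDUFB6, NDUFS4 and NDUFA8 (adjusted p of 0.067, 0.20 and 0.057 in edgeR). NDUFS4 kept its call only when H1p16 replicate 3 was the library left out. NDUFS7 lost it without H1p16 replicate 3 (adjusted p = 0.18 in edgeR) or H1p43 replicate 1 or 2 (0.064 and 0.062), and NDUFA8 also without H1p43 replicate 2 (0.064) or 3 (0.050).

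The 4 genes of complex II moved apart. SDHA was at 103.2, 98.5 and 98.7 TPM in H1p43 and at 75.97, 77.5 and 75.01 TPM in H1p16, a log2 fold change of 0.28 ± 0.03 with an adjusted p of 1.5e-07 in edgeR. SDHB was at 140.9, 140.7 and 137.35 TPM in H1p43 and at 118.3, 120.55 and 121.02 TPM in H1p16, at 0.11 ± 0.03 (adjusted p = 0.0048). SDHD went the other way, at 126.2, 127.4 and 125.9 TPM in H1p43 and at 136.2, 135.01 and 142.2 TPM in H1p16, with a log2 fold change of -0.23 ± 0.03 and an adjusted p of 2.0e-06 in edgeR. The 2 groups did not overlap for any of these 3 genes. SDHC overlapped and was not called, at 72.2, 76.01 and 76.1 TPM in H1p43 and at 63.6, 68.8 and 73.1 TPM in H1p16 (0.01 ± 0.04), but limma on log2(TPM + 1) placed it at 0.13 (adjusted p = 0.036).

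In complex III, UQCR10 was the 1 member called in the same direction under TMM, RLE and TPM scaling, at 183, 178 and 173.3 TPM in H1p43 and at 153.1, 155.9 and 152.2 TPM in H1p16 (0.10 ± 0.03). In complex IV, COX7A2L was at 179.3, 178 and 184 TPM in H1p43 and at 136.2, 143.5 and 152.04 TPM in H1p16, a log2 fold change of 0.21 ± 0.04 with an adjusted p of 4.3e-05 in edgeR. COX6B2, the paralog of COX6B1 known from testis, had the largest fold change of any member, 1.07 ± 0.17, but at a low level of 2.74 to 2.95 TPM in H1p43 and of 1.23 to 1.29 TPM in H1p16. COX4NB was lower at -0.30 ± 0.04, with 50.5, 48.6 and 48.4 TPM in H1p43 and 58.2, 55.2 and 54.7 TPM in H1p16. COX4I1 beside it was at -0.11 ± 0.03 on counts and at 0 on log2(TPM + 1), so no direction is given for it.

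Complex V had no member higher and 11 lower of 17 tested on counts, and 5 higher and 3 lower on log2(TPM + 1). The 3 called lower on both were ATP5B, ATP5F1 and ATP5H, the beta, b and d subunits. ATP5B was at 951, 965 and 961 TPM in H1p43 and at 1008, 1020 and 1032 TPM in H1p16, a log2 fold change of -0.20 ± 0.02 with an adjusted p of 1.9e-08 in edgeR. ATP5A1, its partner in the F1 hexamer, was not called on counts, at 0.02 ± 0.02 (adjusted p = 0.44 in edgeR). In the same comparison all 5 pluripotency markers were lower in H1p43, with log2 fold changes of -0.16 to -1.03. Of 4 fibroblast markers tested 2 were higher (COL1A2 and PDGFRB) and 2 lower, against a background of 36.4% and 35.4%. All 3 neuroectoderm markers tested were higher on counts (2 of them on log2(TPM + 1)), and the list summed to 8.47 to 9.41 TPM in H1p43 and 3.52 to 4.11 TPM in H1p16. Their part in the differences was not tested.

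Between the LM-Seq lanes the members' summed level was close. Over shared library numbers, edgeR called no member unless the number was used as a block. The sum was 1.44 ± 0.044% of TPM in Lane 1, 1.45 ± 0.048% in Lane 2, 1.44 ± 0.033% in Lane 3 and 1.44 ± 0.022% in Lane 4 (SD over all libraries of the lane). ATP5B averaged 910 ± 39.7 TPM in Lane 1, 923 ± 45.1 TPM in Lane 2, 928 ± 49.5 TPM in Lane 3 and 912 ± 33 TPM in Lane 4. SDHD averaged 68 ± 12.9 TPM in Lane 1, 68.6 ± 10.7 TPM in Lane 2, 65.9 ± 7.95 TPM in Lane 3 and 66.9 ± 6.4 TPM in Lane 4. UQCRH, NDUFS5 and COX4I1 likewise differed between lanes by less than their SD. These 5 genes have the highest level of their complexes by the mean of the 6 group means, TruSeq included. Within Lane 4, SDHA (77.4 TPM) was above SDHD and ATP5A1 (976 TPM) was above ATP5B. Over the library numbers that each lane shares with Lane 1, edgeR without a block called no member in Lane 2 (76 tested), Lane 3 (78 tested) or Lane 4 (78 tested). The background was 0, 0 and 0.0161%. At an unadjusted p below 0.05 there were 0, 2 and 2 members (1.8, 1.99 and 1.25% of all genes), and DESeq2 called none either. These were SDHB and UQCRC1 in Lane 3, and NDUFA9 and NDUFB1 in Lane 4. Single members differed more than the sum. Over the 6 shared numbers, the mean of NDUFB1 was 53.57 ± 6.58 TPM in Lane 4, against 35.75 ± 10.2 TPM in Lane 1 (SD), a log2 fold change of 0.59 ± 0.24 (unadjusted p = 0.019, adjusted p = 1 in edgeR). The mean of NDUFA3 was 39.84 ± 7.79 TPM in Lane 4, against 26.44 ± 11.6 TPM in Lane 1, at 0.58 ± 0.32 (unadjusted p = 0.074 in edgeR). With the library number as a block, UQCRC1 was called in Lane 3 against Lane 1 at 0.11 ± 0.03 (adjusted p = 0.041 in edgeR), against a background of 0.405%, and no member in Lane 2 or Lane 4 (background 0.257 and 0.105%). A fit of all libraries of both lanes called UQCRC1, NDUFS7 and NDUFA12 in Lane 3 (background 0.597%). It set no block, so same-numbered libraries entered it as if independent.

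The spread between libraries was smaller in the deeper lanes. The median SD of log2(TPM + 1) over 78 members was 0.262 in Lane 1, 0.218 in Lane 2, 0.170 in Lane 3 and 0.132 in Lane 4, beside 0.312, 0.252, 0.210 and 0.156 over all genes whose mean was 1 TPM or more. Over the 6 library numbers present in all 4 lanes it was 0.233 in Lane 1, 0.202 in Lane 2, 0.146 in Lane 3 and 0.132 in Lane 4. In Lane 1 the SD was lowest for ATP5B, at 0.063 with a median of 856 expected counts, and highest for NDUFA3, at 0.693 with a median of 6 expected counts. A split of Lane 1 into the 48 libraries whose numbers recur in Lane 2 and the 47 others gave no call among 75 members with edgeR (background 0%; 8 members at an unadjusted p below 0.05, beside 6.05% of all genes, and none by DESeq2), with sums of 1.45 ± 0.045% and 1.44 ± 0.043% of TPM.

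Genes that assemble, feed or regulate the chain, taken from lists made for this purpose, did not all move with the subunits. Over all genes tested in Lane 4 against TruSeq, 34.3% were called higher and 36.9% lower, with a median log2 fold change of -0.06. The medians of both assembly lists lay near that of all genes. In Lane 4 against TruSeq, 3 of 10 complex I assembly factors were higher and 4 lower (median log2 fold change -0.08), among them NDUFAF4 at 0.77 ± 0.07 and ECSIT at -0.81 ± 0.08. Of 22 assembly factors of complexes II to V, 10 were higher and 7 lower (median -0.06), with SCO1, a copper chaperone of complex IV, at 1.31 ± 0.08 and SDHAF2, which helps attach FAD to SDHA, at -1.64 ± 0.13. Of 6 genes for cytochrome c, cytochrome c1, the ATPase inhibitor and the adenine nucleotide carriers, 1 was higher and 4 lower (median -0.71), CYC1 lying at -0.96 ± 0.06. Of 11 regulators of mitochondrial biogenesis, 6 were higher and 3 lower (median 0.36). TFAM, which packages and transcribes mitochondrial DNA, was at 1.36 ± 0.12, and ESRRA was at 8.0 ± 1.2 TPM in Lane 4 and 26.6 ± 1.78 TPM in TruSeq (-1.69 ± 0.10). Of 14 enzymes of the tricarboxylic acid cycle, 2 were higher and 10 lower (median -0.34), with DLD at 1.46 ± 0.06 and MDH2 at -1.21 ± 0.05. Among the marker lists, 3 pluripotency genes were higher and 2 lower, 2 fibroblast genes were higher and 2 lower, and 1 of 3 neuroectoderm genes was lower; no mesendoderm gene passed the filter.

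In H1p43 against H1p16 the regulators had the largest median shift of these lists apart from the marker lists, with 2 higher and 7 lower of 11 (median -0.25), and 2 higher and 6 lower on log2(TPM + 1). The background over all genes was 36.4% higher and 35.4% lower on counts, and 47.1% and 26.3% on log2(TPM + 1). TFAM was lower at -0.62 ± 0.03. PPRC1, a coactivator related to PGC-1, was at 50.6 ± 1.91 TPM in H1p43 and 74.5 ± 2.61 TPM in H1p16 (SD, n = 3 each; -0.67 ± 0.03), and TFB2M, a factor for mitochondrial transcription, at 26.3 ± 0.551 TPM in H1p43 and 39 ± 1.99 TPM in H1p16 (-0.68 ± 0.05). The complex I assembly list had 3 higher and 2 lower (6 and 1 on log2(TPM + 1)), and that of complexes II to V had 2 higher and 10 lower (7 and 8). The cytochrome c and carrier list had 2 higher and 2 lower (4 and 1), and the tricarboxylic acid cycle had 5 higher and 7 lower (7 and 4), among them IDH2 at 0.35 ± 0.04. No member of these lists was called between lanes in the fits over shared library numbers without a block.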

How the data were processed

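RNA-seq libraries of H1 cells were compared through gene tables made by the authors. CASAVA 1.8.2, Bowtie 0.12.8, RSEM 1.2.3 and the build hg19 are named in the submitters' processing notes. Per gene, 2 kinds of value were deposited: RSEM's expected counts, and TPM, in which counts are divided by transcript length and brought to the same total in each library. Expected counts were rounded and tested with edgeR 4.0.16 (R 4.3.3; filterByExpr, TMM, quasi-likelihood test, Benjamini-Hochberg adjustment over all genes tested, threshold 0.05); sums of TPM were described without a test. Alternatives were DESeq2 1.42.0, RLE factors, no filter, limma 3.58.1 on log2(TPM + 1) or log2(TPM + 0.1) (genes averaging 1 TPM or more), a minimum fold of 1.5, an offset for effective length, omitted replicates, other lanes and a replicate block; an offset for transcript length and GC content was added after seeing the data.

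The members, lists and tests were chosen with earlier results of these data known. Named members are, per comparison and direction, the 6 largest changes among those called with at least 5 TPM in the higher group. The SDH genes, the paralog sets and the member of each complex with the highest mean over the 6 group means were named too. So were up to 3 called genes of each further list. Others were named after their values were seen. The values of 1 member are not reported here. RSEM divides reads between near-identical genes by a model, and the sources used here do not state whether strand entered the counting. Transcript length and GC content came from GENCODE v29 by RefSeq accession for 86 of 87 members, and promoters from RefSeq GRCh38.p14; no coordinates were moved between builds. LM-Seq library numbers recur across lanes. Same-numbered libraries deviated together from their lane means, with correlations with Lane 1 between 0.168 and 0.639 for Lane 2, between 0.226 and 0.551 for Lane 3 and between 0.359 and 0.437 for Lane 4, so the numbers pair libraries. No duplicate libraries were found: libraries of 1 group differed by a chi-square of 1.29 or more per degree of freedom. On simulated counts, 72 of 100 genes changed 2-fold were recovered for Lane 4 against TruSeq (13627 unchanged genes, 3 called) and 93 of 100 for H1p43 against H1p16 (14374 unchanged genes, 13 called).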

Additional observations from a re-analysis of the deposited data

Results flagged for a closer look

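Of 44 sets of 6 Lane 4 values checked for a single distant library, 3 stood out, where chance gives about 1 in 20. NDUFS3 was at 85.7 TPM in 1 library and at 91.5 to 94.8 TPM in the other 5. COX8A was at 191.5 TPM in 1 library and at 102.2 to 134.6 TPM in the others. The same library as for COX8A had the highest complex IV share, 0.294% of TPM, against 0.277 to 0.282% in the others.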

How the results depend on the processing

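For H1p43 against H1p16, 35 members were higher and 15 lower with limma on log2(TPM + 1) or log2(TPM + 0.1). At a fold of at least 1.5, 1 was higher and 0 lower, and with an offset for effective length 6 were higher and 43 lower. Leaving out 1 replicate gave 8 to 14 higher and 30 to 39 lower members. The share over all genes was not computed for that offset or for these omissions. The replicate numbers of H1p43 and H1p16 do not pair the libraries (correlations of 0.0114 to 0.0420), and the replicate block gave 12 higher and 37 lower. On log2(TPM + 1) and log2(TPM + 0.1) alike, values turned to 0.01 for NDUFS5, 0.10 for UQCRH, 0.00 for COX4I1, 0.10 for NDUFA4, 0.02 for COX6A1, 0.07 for COX6B1, 0.10 for ATP5G1, 0.08 for ATP5G2, 0.01 for ATP5G3 and 0.03 for ATP5E; the cause was not tested. NDUFS7 turned to -0.05 with an offset for transcript length and GC content. The H1p43 over H1p16 ratio was 1.04 for complex I without ribosomal protein genes and 1.13 for complex II as a share of counts.

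For Lane 4 against TruSeq, 7 members were higher at a fold of at least 1.5, 24 with an offset for effective length and 25 with one for transcript length and GC content. Leaving out 1 TruSeq replicate gave 13 to 13 higher and 54 to 55 lower. SDHA (0.18) and SDHC (0.34) turned with the length and GC offset, and ATP5B (0.18) and COX7A2 (0.08) with the effective-length offset. Ratios for complexes I to V were 0.741, 0.512, 0.423, 0.411 and 0.531 without ribosomal protein genes, and as shares of counts 0.774 for I, 0.512 for III, 0.503 for IV and 0.639 for V. In Lane 3 against Lane 1, the replicate block called 1 member. A fit of all libraries of both lanes, with no block on the number, called 3 (UQCRC1, NDUFS7, NDUFA12). Of 465 values of single named genes for H1p43 against H1p16, 385 kept direction and side of the threshold, 51 lost the call, 8 gained one and 21 turned. For Lane 4 against TruSeq, 519 of 538 kept both, 5 lost the call, 10 gained one and 4 turned. Depth limits the lowest members: NDUFA3 had a median of 6 expected counts in Lane 1.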
